A study of Mus musculus with 6 samples.

Results

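The genes described here are 9 components of the tight junction and of the apical polarity machinery: Tjp1, Tjp3 and Cgn of the cytoplasmic plaque, Ocln, Marveld2 and F11r in the membrane, and Crb3, Pard3 and Pard6b of the polarity complexes. They were taken by name, and each was read from its probe set of highest mean signal among those annotated to it alone, which made 9 of the 10350 genes kept for testing. In all, 18 probe sets were annotated to these genes, and 17 of them passed the filter on low signal. All 9 genes passed it with the probe set that represented them. The samples were mpkCCD cells, a mouse cell line derived from kidney cortical collecting duct, with 1 Affymetrix array per line. Clone 2, labelled as not expressing the water channel aquaporin 2 (AQP2, gene Aqp2), was compared with the 5 AQP2-expressing lines, which were clones 3, 9, 10 and 11 and the original cells. Every line, clone 2 included, had received 0.1 nM dDAVP, a vasopressin analog, over 5 days. Each line was a single culture on a single array, so differences of line, of culture and of array cannot be told apart, and the number of arrays limits the precision.

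Tight junctions seal the space between neighbouring epithelial cells and divide the apical from the basolateral membrane. Scaffold proteins of the ZO family tie the membrane proteins of the junction to actin, while the Crumbs and PAR complexes mark the apical side and help to place the junction. In collecting duct principal cells this seal keeps up the osmotic gradient that water follows through AQP2 in the apical membrane.

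As a check of the labels, Aqp2 had a signal of 159.3 in clone 2, against 1697.9 in clone 3, 4683.4 in clone 9, 1066.4 in clone 10, 6577.7 in clone 11 and 3822.4 in the original cells. Its log2 difference was -4.05 (limma adjusted p = 0.0387), with adjusted p between 0.0173 and 0.157 over 14 other settings, among them 0.0533 without clone 11 and 0.0867 without the original cells. The epithelial markers Epcam, Cdh1, Krt8, Krt18 and Krt19 were all past the filter, and their summed signal was 78206 in clone 2, against 85768 to 96297 in the expressing lines. Krt19 went the other way and was above every expressing line in clone 2 (11913, against 8286 to 9559). Epcam, Cdh1, Krt8 and Krt18 were each below every expressing line, with Cdh1 at 0.737 times their mean. Clone 2 lay outside the range of the expressing lines for 55.9% of all genes past the filter, so such positions were common. None of the 11 fibroblast and mesenchymal, 5 endothelial and 4 measured leukocyte markers passed the filter. The mesenchymal list summed to 297 in clone 2, against 229 to 426 in the expressing lines. Of 6 principal cell markers, Aqp2 defines the groups by their labels, so its low signal in clone 2 adds nothing here. Of the others, Fxyd4 was at 0.224 times and Gata3 at 0.554 times the mean of the expressing lines. Scnn1a was at 0.643 times, Avpr2 at 1.08 times and Aqp3 at 1.63 times that mean. Median signals of the arrays were 79.6 in clone 2, against 84.3 to 88.6 in the expressing lines.

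All 9 genes had a signal well above the filter in clone 2 and in every expressing line. In bulk cultures, fewer cells with a transcript and less of it per cell cannot be told apart. The signal of clone 2 lay between 0.622 times (Pard3) and 1.23 times (Marveld2) the mean of the expressing lines. None of the 9 passed the test of clone 2 against the 5 expressing lines by limma, where 2.48% of all 22541 probe sets did, 184 of them higher and 376 lower (254 higher and 232 lower with each array centred on its median). At an unadjusted p under 0.05 there were 3 of 9, namely Pard3, Cgn and F11r, all lower in clone 2, beside 20% of all probe sets. The signal of clone 2 lay outside the range of the expressing lines for 7 of 9 genes, 4 below and 3 above, beside 55.9% of all genes. The median log2 difference of the 9 genes was -0.13, and that of all 10350 genes was 0.01. With each array centred on its median, the difference moved from -0.42 to -0.33 for Cgn and from -0.32 to -0.23 for F11r. It moved from -0.66 to -0.57 for Pard3 and from -0.28 to -0.19 for Crb3. The positive differences grew, from 0.29 to 0.38 for Ocln and from 0.32 to 0.41 for Marveld2.

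**Figure D1:**
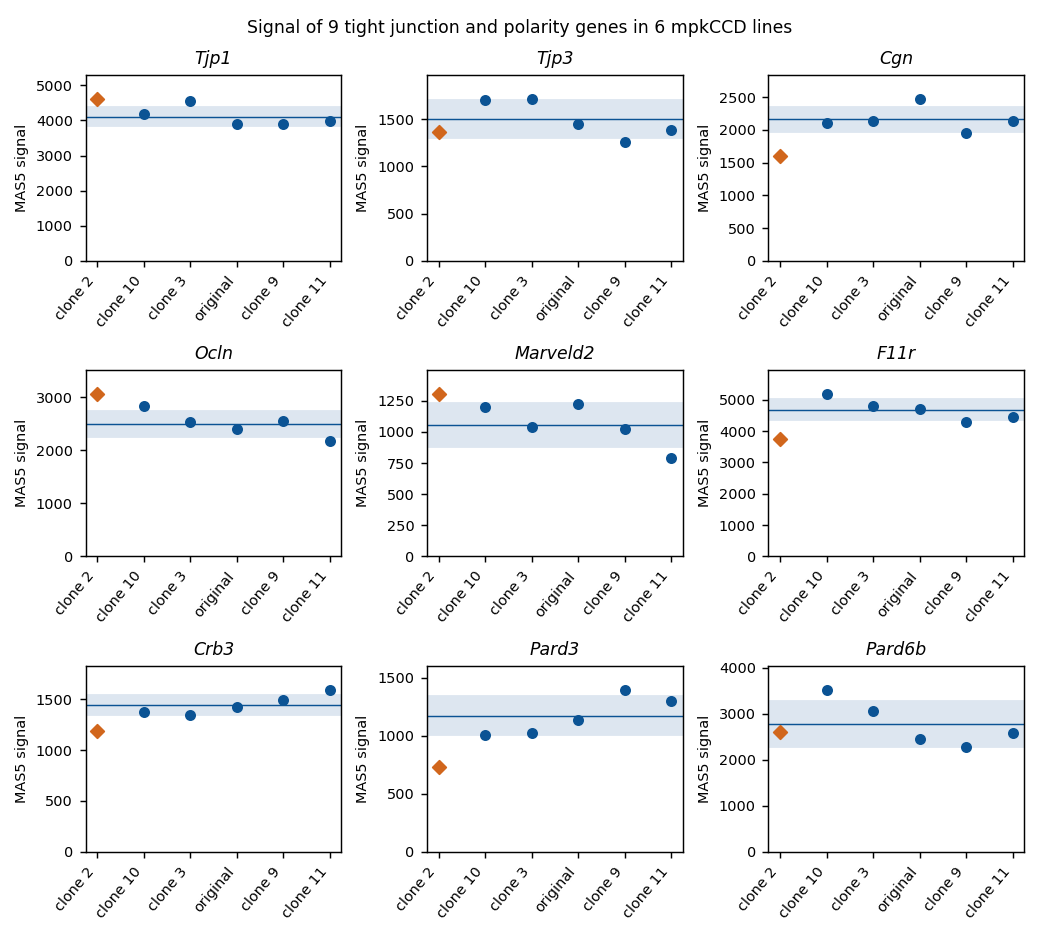
MAS5 signal on a linear axis (y) of each gene in each line (x), with clone 2 first as an orange diamond and the expressing lines as blue points in the order of their Aqp2 signal. The line and band are the mean and SD of the 5 expressing lines, and clone 2 lies below all of them for Cgn, F11r, Crb3 and Pard3.

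In the plaque, Tjp1 encodes ZO-1, the scaffold that binds claudins and occludin and links them to actin. Its signal was 4617 in clone 2, against 4541 in clone 3, 3902 in clone 9, 4178 in clone 10, 3977 in clone 11 and 3911 in the original cells. Clone 2 was highest and clone 3 nearly equal to it, so the groups were separated by a narrow margin. The expressing lines averaged 4102 ± 270 (SD, n = 5), and the log2 difference of clone 2 was 0.17 (95% interval -0.13 to 0.47, limma adjusted p = 0.500), and 0.26 with each array centred on its median. Tjp1 was among the steadier genes, since only 12.2% of genes varied less among the expressing lines on the log2 scale.

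Tjp3 encodes ZO-3, a further scaffold of the ZO family. It had 1363 in clone 2, against 1715 in clone 3, 1254 in clone 9, 1708 in clone 10, 1384 in clone 11 and 1447 in the original cells. Clone 2 lay inside the range of the expressing lines, near clone 11. Clones 3 and 10 stood above the rest. The log2 difference was -0.13 (95% interval -0.57 to 0.32, limma adjusted p = 0.758). It was -0.08 without clone 3 and also without clone 10, and -0.04 with each array centred on its median.

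Cgn encodes cingulin, a coiled-coil plaque protein that binds ZO-1 and actomyosin. Its signal was 1599 in clone 2, against 2132 in clone 3, 1951 in clone 9, 2098 in clone 10, 2136 in clone 11 and 2473 in the original cells. Clone 2 was lowest, below every expressing line, and the original cells were highest. The expressing lines averaged 2158 ± 192 (SD, n = 5), and the log2 difference of clone 2 was -0.42 (95% interval -0.78 to -0.07, limma adjusted p = 0.180). A weak other probe set of Cgn, with signals between 110.2 and 178.2 over the lines, had a difference of -0.21.

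Among the membrane proteins, Ocln encodes occludin, which spans the membrane several times and binds ZO-1 from inside. Its signal was 3058 in clone 2, against 2543 in clone 3, 2550.1 in clone 9, 2842 in clone 10, 2177 in clone 11 and 2401 in the original cells. Clone 2 was highest and clone 11, the line with the most Aqp2, was lowest. The expressing lines averaged 2503 ± 243 (SD, n = 5), and the log2 difference of clone 2 was 0.29 (95% interval -0.07 to 0.65, limma adjusted p = 0.341). The other Ocln probe set gave the same picture, with 1242 in clone 2, against 893 ± 150 (SD, n = 5) in the expressing lines and 708 in clone 11 alone. Its log2 difference was 0.48 (limma adjusted p = 0.281).

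Marveld2 encodes tricellulin, a relative of occludin that sits at the corners where several cells meet. It had 1303 in clone 2, against 1039 in clone 3, 1023 in clone 9, 1199 in clone 10, 788 in clone 11 and 1228 in the original cells. As for Ocln, clone 2 was highest and clone 11 lowest. The log2 difference was 0.32 (95% interval -0.21 to 0.84, limma adjusted p = 0.483).

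F11r encodes JAM-A, an immunoglobulin-type adhesion protein that binds PAR-3. Its signal was 3746 in clone 2, against 4802 in clone 3, 4283 in clone 9, 5175 in clone 10, 4457 in clone 11 and 4715 in the original cells. Clone 2 lay below every expressing line. The expressing lines averaged 4686 ± 342 (SD, n = 5), and the log2 difference of clone 2 was -0.32 (95% interval -0.62 to -0.01, limma adjusted p = 0.231). The other F11r probe set reached no more than 64.1 in any line and was the 1 that failed the filter.

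Of the polarity genes, Crb3 encodes the Crumbs protein of most epithelia, which anchors the PALS1 and PATJ scaffold at the apical membrane. Its signal was 1184 in clone 2, against 1348 in clone 3, 1493 in clone 9, 1371 in clone 10, 1592 in clone 11 and 1427 in the original cells. Clone 2 was lowest, and clones 11 and 9, which had the most Aqp2, were highest. The log2 difference was -0.28 (95% interval -0.63 to 0.07, limma adjusted p = 0.342). Both other Crb3 probe sets had clone 2 lowest as well, with log2 differences of -0.51 and -0.50 (limma adjusted p = 0.308 and 0.189), and the mean of the Crb3 probe sets had -0.43. The representing probe set is of the type whose probes can match more than 1 transcript.

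Pard3 encodes PAR-3, the scaffold that brings PAR-6 and atypical protein kinase C to the junction. It had 730 in clone 2, against 1024 in clone 3, 1395 in clone 9, 1010.5 in clone 10, 1298 in clone 11 and 1135 in the original cells. Clone 2 lay below every expressing line, and clones 9 and 11 were highest. The expressing lines averaged 1173 ± 169 (SD, n = 5), and the log2 difference of clone 2, at -0.66, was the largest of the 9 genes (95% interval -1.12 to -0.19, limma adjusted p = 0.126). A further Pard3 probe set had 380 in clone 2, against 701 in clone 3, 1029.98 in clone 9, 703 in clone 10, 936 in clone 11 and 661 in the original cells. Its log2 difference was -1.03 (95% interval -1.61 to -0.45, limma adjusted p = 0.0719), and the remaining pair of weaker Pard3 probe sets gave -0.36 and -0.49.

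Pard6b encodes a PAR-6 protein, the adaptor through which CDC42 acts on atypical protein kinase C. Its signal was 2610 in clone 2, against 3060 in clone 3, 2271 in clone 9, 3521 in clone 10, 2586 in clone 11 and 2462 in the original cells. Clone 2 lay in the middle of the expressing lines, with clone 10 highest. The log2 difference was -0.07 (95% interval -0.57 to 0.43, limma adjusted p = 0.891), and it was 0.02 with each array centred on its median and also 0.02 without clone 10. It was -0.03 without clone 3, -0.14 without clone 9 and -0.11 without the original cells. The other Pard6b probe set had a difference of -0.10.

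Among the expressing lines the highest line was between 1.16 times (Tjp1) and 1.56 times (Marveld2) the lowest, where Aqp2 varied 6.17 times. On the log2 scale, 71.3% of genes varied less than Pard6b, 70.6% less than Marveld2, 56.7% less than Pard3 and 53.8% less than Tjp3. For the rest of the 9 genes this share ran from 12.2% (Tjp1) to 31.3% (Ocln). With 1 array per line the spread within a line was not measured, so the order of lines with close signals is not established. Pairs of the 9 genes were compared over the 6 lines by Pearson's r and Spearman's rho of log2 signals from the same 6 arrays. How often other pairs of genes reach such values was not tested, so these values describe the arrays only. By r over the 6 lines Crb3 and Pard3 came first (r = 0.95, rho = 0.89), both with clone 2 lowest and clones 9 and 11 highest. Tjp3 and Pard6b came next (r = 0.92, rho = 0.71), both highest in clones 3 and 10. Ocln and Marveld2 followed (r = 0.80, rho = 0.60), both with clone 2 highest and clone 11 lowest. Cgn and F11r were close behind (r = 0.78, rho = 0.49), but had r = 0.29 over the expressing lines alone. The lowest r was that of Ocln and Crb3 (r = -0.89, rho = -0.71). The order of pairs depended on the measure, since Tjp3 and F11r had the same rho as Crb3 and Pard3 (0.89, with r = 0.74), and rho was lowest for Tjp1 with Pard3 and for Ocln with Cgn (-0.89 each). Over the 5 expressing lines alone, r was 0.86 for Crb3 and Pard3, 0.93 for Tjp3 and Pard6b, 0.72 for Ocln and Marveld2, and -0.77 for Ocln and Crb3. There the highest r was that of Tjp3 and Pard6b and the lowest that of Tjp3 and Pard3 (-0.97).

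In clone 2 the median difference varied from chromosome to chromosome, so each gene was set beside the measured genes of its own chromosome and beside up to 20 measured genes nearest to it on each side, with chromosomes and gene order from assembly GRCm38.p6. For all 9 genes the log2 difference of clone 2 had the sign of the median of its chromosome, as it did for 70.0% of all 10315 genes compared in this way. It also had the sign of its neighbours' median for all 9 genes, as it did for 71.9% of all genes. For 7 of 9 it lay within the quartiles of its chromosome, and Cgn and Pard3 were the exceptions. F11r, on chromosome 1, stood at -0.32 beside -0.28 for the chromosome and -0.12 for its neighbours. Tjp1, on chromosome 7, stood at 0.17 beside 0.19 for the chromosome and 0.07 for its neighbours. Crb3, on chromosome 17, stood at -0.28 beside -0.37 for the chromosome and -0.41 for its neighbours, and 37 of its 40 neighbours were lower in clone 2. The other Crb3 probe sets stood at -0.51 and -0.50, below both medians. Cgn, on chromosome 3, stood at -0.42 beside -0.20 for the chromosome and -0.13 for its neighbours. Tjp3, on chromosome 10, stood at -0.13 beside -0.24 for the chromosome and -0.16 for its neighbours. Pard6b, on chromosome 2, stood at -0.07 beside -0.13 and -0.01, with 20 neighbours higher and 20 lower.

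Pard3 lies near the end of chromosome 8, so it had 23 measured neighbours. The median of that chromosome was -0.01, but all 23 neighbours of Pard3 were lower in clone 2, with a median of -0.59, beside the -0.66 of Pard3 itself. That value is of the representing probe set, and the further Pard3 probe set stood at -1.03 and the weaker pair at -0.36 and -0.49. Ocln and Marveld2 lie next to each other on chromosome 13, with 0 protein-coding genes between them. Their neighbours were mostly higher in clone 2, 32 of 40 for either gene, with medians of 0.29 and 0.26 beside the 0.29 of Ocln and the 0.32 of Marveld2. As the genes are adjacent, their neighbours are largely the same, so these values describe a single region and are not separate observations. Rad17, the gene on the far side of Marveld2, had 1923 in clone 2, against 1026 to 1318 in the expressing lines. What part these regional differences had in those of the 9 genes was not tested.

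**Figure D2:**
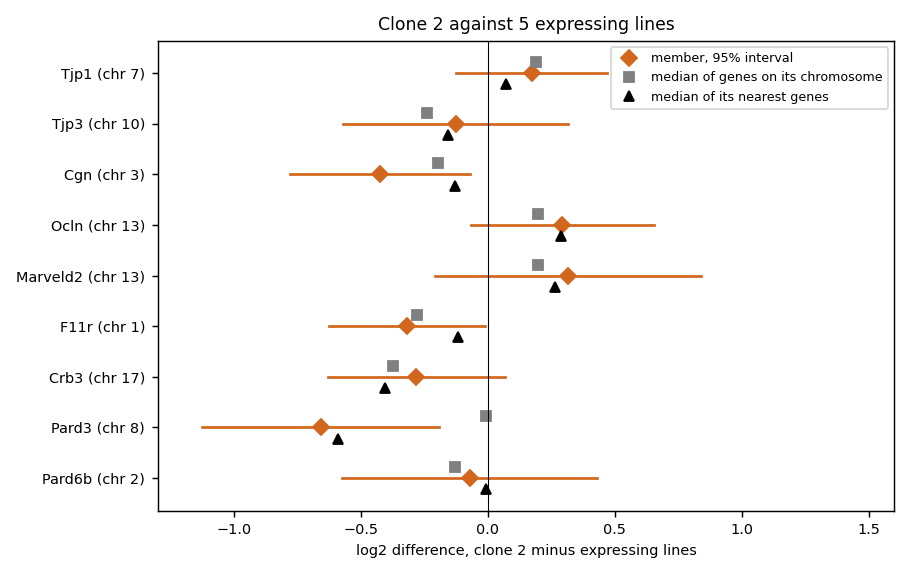
Log2 difference of clone 2 minus the 5 expressing lines (x) for each gene (y, with its chromosome), as orange diamonds with 95% intervals, beside the median difference of the genes of its chromosome (grey squares) and of its nearest genes (black triangles). Pard3, at -0.66 by its representing probe set, lies far from the median of chromosome 8 (-0.01) and near that of its neighbours (-0.59).

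Ocln, Marveld2, Pard3 and Crb3 were also set beside their neighbours line by line, as log2 signal minus the mean of the 6 lines. In clone 11 Ocln stood at -0.24 and Marveld2 at -0.45, and the medians of their neighbours stood at -0.38 and -0.37. In clone 2 Ocln stood at 0.24 and Marveld2 at 0.26, beside 0.24 and 0.22 for the neighbours. In the original cells Marveld2 stood at 0.18 and its neighbours at -0.03. Pard3 stood at -0.55 in clone 2, 0.37 in clone 9 and 0.27 in clone 11, beside -0.49, 0.28 and 0.17 for its neighbours. Crb3 stood at -0.24 in clone 2, 0.10 in clone 9 and 0.19 in clone 11, beside -0.34, 0.19 and 0.17. Tjp3 went another way in clone 9, where it stood at -0.23 and its neighbours at 0.13. Over the 9 genes and 6 lines, gene and neighbours had the same sign in 43 of 54 cases. The share over all genes was not computed for this count, so it cannot be read as particular to the 9 genes. Nor are the cases independent, since the values of a gene are centred on its own mean and Ocln and Marveld2 are adjacent.

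**Figure D3:**
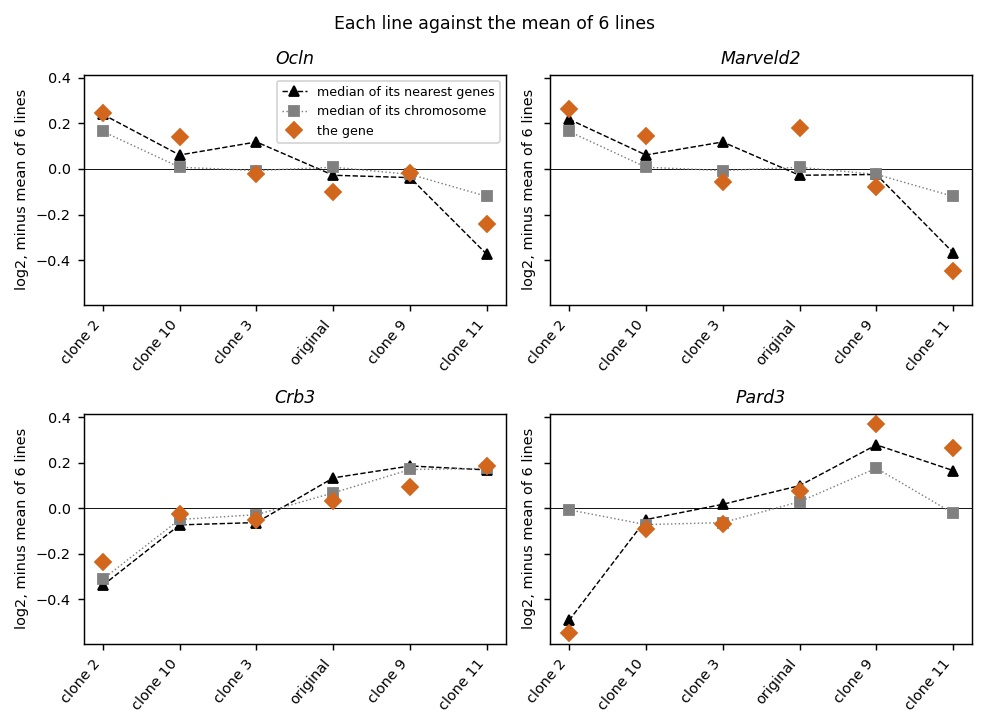
Log2 signal minus the mean of the 6 lines (y) in each line (x, clone 2 first and then in the order of Aqp2 signal) for Ocln, Marveld2, Crb3 and Pard3 (orange diamonds), with the medians of the nearest genes (black triangles) and of the chromosome (grey squares). The low value of Pard3 in clone 2 and that of Marveld2 in clone 11 are shared by their neighbours.

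The promoters of these 4 genes are printed because these are the genes whose values by line were set beside those of their neighbours. The sequences are the 250 bases before the most upstream start that RefSeq lists on GRCm38.p6, 5′ to 3′ on the gene's strand. Capitals mark GGGCGG or its reverse complement CCGCCC, the GC box bound by SP1-type factors, and CACCTG or CAGGTG, the E-box bound by SNAIL and ZEB repressors of epithelial genes. Which start the cells used is not known from these arrays. Ocln lies on the minus strand at chr13:100552719-100552968 and Marveld2 on the minus strand at chr13:100616972-100617221. Crb3 lies on the plus strand at chr17:57061951-57062200 and Pard3 on the plus strand at chr8:127063806-127064055.
Ocln: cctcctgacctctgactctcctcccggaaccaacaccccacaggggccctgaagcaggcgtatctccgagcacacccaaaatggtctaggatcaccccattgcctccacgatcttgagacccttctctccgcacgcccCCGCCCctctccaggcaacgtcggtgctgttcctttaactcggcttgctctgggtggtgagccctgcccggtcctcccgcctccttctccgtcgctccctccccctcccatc
Marveld2: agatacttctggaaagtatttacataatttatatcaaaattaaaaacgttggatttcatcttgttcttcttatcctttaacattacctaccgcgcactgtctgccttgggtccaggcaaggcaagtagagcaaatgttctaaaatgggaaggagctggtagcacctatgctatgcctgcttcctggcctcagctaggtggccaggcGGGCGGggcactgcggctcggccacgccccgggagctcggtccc
Crb3: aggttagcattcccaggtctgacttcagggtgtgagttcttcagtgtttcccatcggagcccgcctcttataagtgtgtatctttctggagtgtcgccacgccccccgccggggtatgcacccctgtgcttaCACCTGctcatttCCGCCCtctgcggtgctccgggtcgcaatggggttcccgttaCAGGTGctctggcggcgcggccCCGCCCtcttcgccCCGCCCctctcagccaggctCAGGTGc
Pard3: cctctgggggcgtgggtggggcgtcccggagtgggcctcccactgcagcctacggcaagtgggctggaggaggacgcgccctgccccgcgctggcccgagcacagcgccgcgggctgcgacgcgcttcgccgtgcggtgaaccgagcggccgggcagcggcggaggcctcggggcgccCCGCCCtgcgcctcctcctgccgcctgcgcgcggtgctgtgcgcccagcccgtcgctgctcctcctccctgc

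The GC box, searched on both strands, occurred once each in the windows of Ocln, Marveld2 and Pard3 and 3 times in that of Crb3, and 33.0% of all 27025 windows of this kind held it. The E-box occurred 3 times in the window of Crb3 and 0 times in the windows of Ocln, Marveld2 and Pard3, and 17.1% of all windows held it. In these 4 windows no match of 1 motif overlapped a match of the other. At the other listed start, Ocln had 2 E-box matches and Pard3 had 3. Of the genes for repressors that bind this E-box, Snai2, Zeb1 and Zeb2 were on the mesenchymal list, and none passed the filter. Zeb1 had 52.2 in clone 2, against 34.2 ± 18.6 (SD, n = 5) in the expressing lines, and Zeb2 had 40.6 in clone 2, against 43.7 ± 14.2 (SD, n = 5). Snai2 had 14.9 in clone 2, against 8.3 ± 5.2 (SD, n = 5). The windows of Ocln and Marveld2 differed in base composition, with 64.0% and 50.4% G and C, and that of Pard3 was richest, with 79.2% and 34 CpG sites.

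The study looked for transcripts that follow Aqp2 over the lines, so the slope of each gene on the log2 signal of Aqp2 was also fitted over the 6 arrays. Aqp2 was far lower in clone 2 (159.3) than in any expressing line (1066.4 or more), so clone 2 weighs heavily in this slope. None of the 9 genes passed this test by limma, where 1.77% of 22540 probe sets did, and 3 of 9 had an unadjusted p under 0.05 (Pard3, Ocln and Crb3), beside 19.8% of all. Pard3 had the steepest slope, 0.16 log2 units per log2 unit of Aqp2 (95% interval 0.08 to 0.24, limma adjusted p = 0.0542). It passed under 2 of 14 other settings, a filter at the 75th percentile (adjusted p = 0.0346) and a robust fit (0.0438). The adjusted p was 0.0904 with no filter, 0.103 without the trend, and between 0.0568 (without clone 10) and 0.122 (without clone 11) with 1 line left out. The further Pard3 probe set described above passed as it stood, with a slope of 0.23 (95% interval 0.12 to 0.34, limma adjusted p = 0.0489). That call was lost under 10 of 14 other settings, among them without clone 3 (adjusted p = 0.0814), clone 9 (0.0727), clone 11 (0.120) or the original cells (0.0572). Over the 5 expressing lines alone its slope was 0.17 (adjusted p = 0.524) and that of the representing probe set was 0.17 (0.399). The neighbours of Pard3 had a median slope of 0.12.

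Crb3 had a slope of 0.07 (95% interval 0.00 to 0.14, limma adjusted p = 0.241), and its neighbours had a median slope of 0.10. Its probe set with the steepest slope had 0.16 (limma adjusted p = 0.0799). Ocln had a slope of -0.08 (95% interval -0.15 to -0.01, limma adjusted p = 0.173) and Marveld2 one of -0.09 (limma adjusted p = 0.281), beside median slopes of -0.09 for the neighbours of either. The slope of Marveld2 was -0.05 without clone 11 (limma adjusted p = 0.584) and -0.14 over the expressing lines alone (0.569). Over those lines alone, that of Ocln was -0.11 (limma adjusted p = 0.487) and that of Crb3 was 0.08 (0.649). Cgn had 0.08 over all lines, but 0.01 over the expressing lines alone. F11r had 0.04 over all lines and -0.09 over the expressing lines alone (limma adjusted p = 0.605 and 0.531). Tjp1, Tjp3 and Pard6b had slopes between -0.05 and -0.02, with limma adjusted p from 0.372 to 0.867. Over the expressing lines alone the slope was -0.06 for Tjp1, -0.16 for Tjp3 and -0.21 for Pard6b, the steepest of the 9 there (limma adjusted p = 0.695, 0.396 and 0.284). The slope of Pard6b was -0.02 without clone 9 and also without clone 10. That of Tjp3 was -0.01 without clone 10 and also without clone 11.

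**Figure D4:**
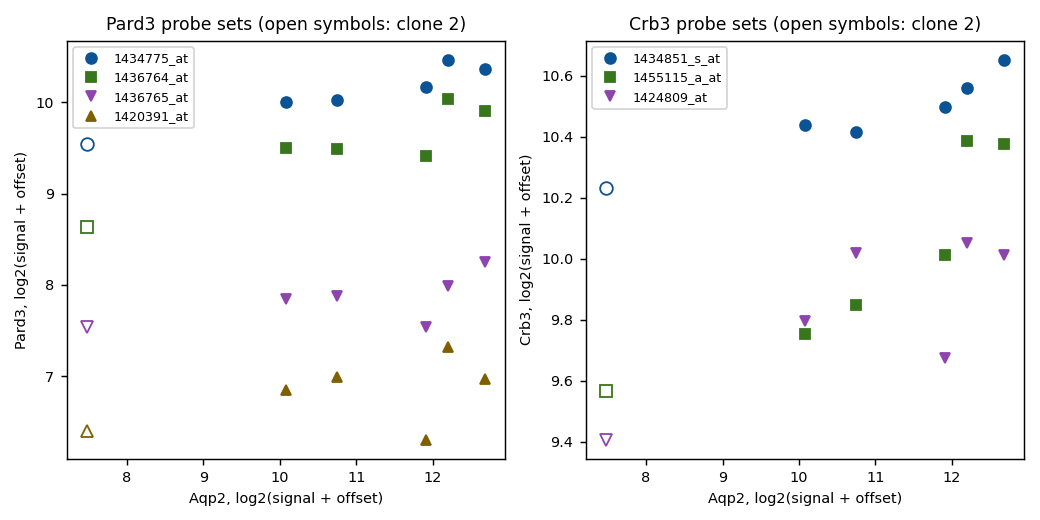
Log2 signal of the Pard3 (left) and Crb3 (right) probe sets past the filter (y) against that of Aqp2 (x) in the 6 lines, with clone 2 as open symbols and each probe set by colour and shape. The Pard3 probe sets of highest signal are lowest in clone 2 and highest in clones 9 and 11, while the original cells fall between or below the other expressing lines.

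The genes most alike in pattern were sought for each of the 9 by Pearson's r of log2 signals over the same 6 lines, among 10349 other genes. With only 6 lines and so many genes, close matches were found for every one of the 9, and they describe these arrays only. Pard3 was most like Arl3 (r = 0.998) and Vars (0.997). Crb3 was most like Mrpl2 (0.995) and BC003965 (0.993), which both lie with it on chromosome 17. Marveld2 was most like Efcab7 (0.996) and Gfod1 (0.990), the last of which is on chromosome 13 as well. Ocln was most like Fam118a (0.982) and Mycn (0.981), and Tjp1 most like Napb (0.981) and Tmem158 (0.981). Tjp3 was most like Foxp1 (0.994) and Ivns1abp (0.992), and Cgn most like Prpf19 (0.995) and Adck1 (0.992). Pard6b was most like Dop1b (0.978) and Rnf187 (0.976), and F11r most like Npdc1 (0.990) and Nvl (0.983), the last of which is on chromosome 1 like F11r. All matches not said to share a chromosome with their gene lie on a different one. How often such matches share a chromosome was not tested.

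The wider machinery was read from a list of 46 partners, which held further scaffolds and membrane proteins of the junction, the Crumbs, PAR and Scribble complexes and the adherens junction. Of these, 43 had a probe set of their own and 32 passed the filter, and 0 passed the clone 2 test by limma, with 8 lower and 1 higher at an unadjusted p under 0.05, beside 1254 lower and 1053 higher of all 10350 genes. Among the 32 the median log2 difference was -0.17, beside 0.01 for all genes. The 4 with the largest differences are given here. Amotl1, an angiomotin that binds PATJ, had 850 in clone 2, against 1951 ± 433 (SD, n = 5) in the expressing lines, and its log2 difference was -1.15 (limma adjusted p = 0.0562). Sympk, which encodes symplekin, a protein of RNA 3′ end processing also found at the junction, was the 1 higher, with 1821 in clone 2, against 990 ± 150 (SD, n = 5). Its log2 difference was 0.88 (limma adjusted p = 0.0608). Marveld3, of the occludin family, had 540 in clone 2, against 949 ± 87.8 (SD, n = 5), and its log2 difference was -0.79 (limma adjusted p = 0.0541). Afdn, which encodes afadin, the link between nectins and actin, had 3406 in clone 2, against 5906 ± 946 (SD, n = 5), and its log2 difference was -0.78 (limma adjusted p = 0.0721).

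For these 4 the groups did not overlap, as for 55.9% of all genes, and the adjusted p lay close to the threshold. With the mean of all probe sets of a gene, the log2 difference was -0.66 for Amotl1 (limma adjusted p = 0.235), 0.39 for Sympk (0.481), -0.50 for Marveld3 (0.297) and -0.43 for Afdn (0.319). With a filter at the 75th percentile, Amotl1 (adjusted p = 0.0470), Sympk (0.0470) and Marveld3 (0.0418) passed, and without clone 9 Amotl1 (0.0340), Marveld3 (0.0403) and Afdn (0.0381) passed. Without clone 10 Sympk passed (0.0448). With a robust fit Amotl1 (0.0461), Sympk (0.0499) and Marveld3 (0.0467) passed, and with each array centred on its median Sympk did (0.0440). Their neighbours had median log2 differences of -0.89 for Amotl1 on chromosome 9, 0.18 for Sympk on chromosome 7, -0.41 for Marveld3 on chromosome 8 and -0.42 for Afdn on chromosome 17. Sympk stood furthest from its neighbours among these 4, and the part of the region in these differences was not tested. In the slope on Aqp2, 2 of 32 partners passed by limma, both rising with Aqp2, beside 126 rising and 105 falling of all 10350 genes and 1.77% of all probe sets. These were Amotl1 (slope 0.27, adjusted p = 0.0279) and Afdn (slope 0.18, adjusted p = 0.0446). Their neighbours had median slopes of 0.20 for Amotl1 and 0.09 for Afdn, and the part of the region in these slopes was not tested. Without clone 11 the adjusted p was 0.0836 for Amotl1 and 0.107 for Afdn. Afdn was also lost without clone 3 (0.0761), clone 9 (0.0580) or the original cells (0.0560), and over the expressing lines alone both were lost (0.370 and 0.482). Both were lost as well with no filter (0.0617 and 0.100) and without the trend (0.0783 and 0.118), and Afdn also with quantile normalization (0.0507) or median centring (0.0525).

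**Figure D5:**
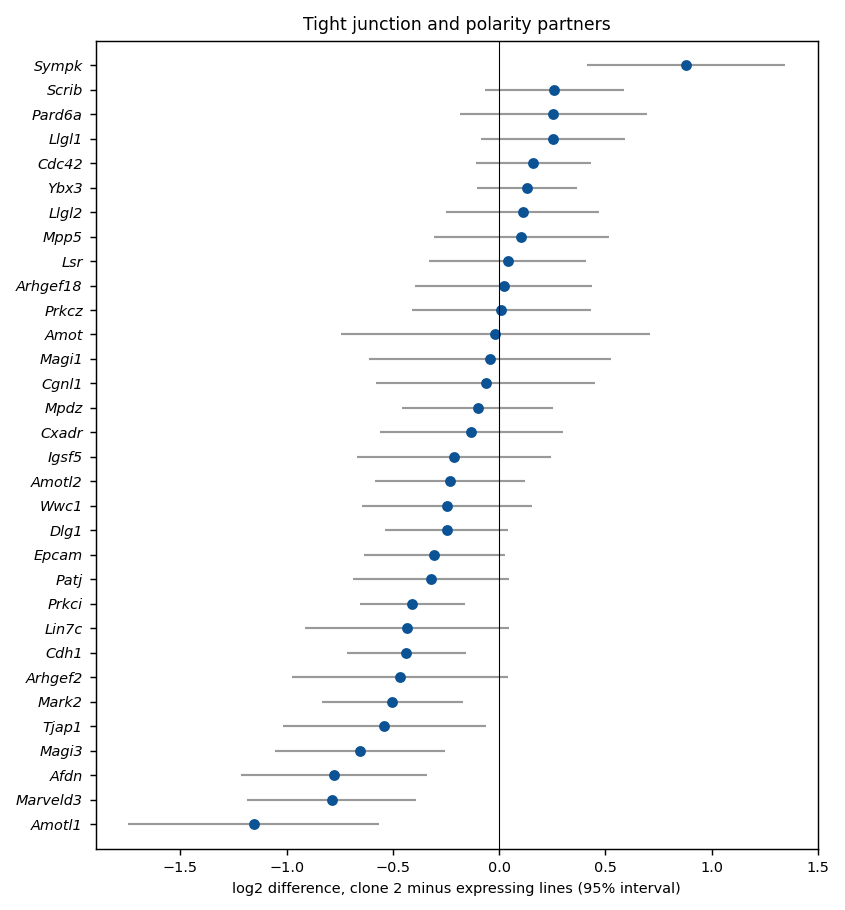
Log2 difference of clone 2 minus the 5 expressing lines (x) with 95% intervals for the 32 partners past the filter (y), sorted from highest to lowest. Sympk (0.88) is at the top and Amotl1 (-1.15) at the bottom, and most others lie between -0.5 and 0.5.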

How the data were processed

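Per the submitters' processing notes, the authors made the deposited values with MAS5 in Affymetrix Expression Console 1.1. They are linear signal intensities of 6 arrays. In every array the mean without the lowest and highest 2% of values was 500, and the scaling target is not given in the sources used here. No detection calls were used. Gene symbols came from the platform annotation, updated through gene identifiers to GRCm38.p6. Of 45037 probe sets, 34945 had 1 gene, 932 several and 9160 none named, and 64 controls were left out.

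Differences were tested on log2(signal + 18.8). This offset was the 25th percentile of the values, and it understates fold changes at low signal. The filter kept probe sets whose mean exceeded 85.1, the median of all values. limma 3.58.1 in R 4.3.3 (lmFit, eBayes with trend) fitted all of them, with Benjamini-Hochberg adjustment over all, a threshold of 0.05 and two-sided tests. The fits had 4 residual degrees of freedom, and clone 2 was assumed to vary like the other lines. Named genes were the 9 genes, Aqp2, the 4 partners of largest difference (none was called) and the 2 most alike genes each. The genes, lists and tests were chosen with earlier results of these data known, and the comparison with neighbouring genes was added after the values were seen. Alternatives were the offset, filter, normalization, eBayes settings, probe sets of a gene, the chromosome median and leaving out each line.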

Additional observations from a re-analysis of the deposited data

How the results depend on the processing

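None of the 9 genes passed the clone 2 test under any of 14 other settings. The number of probe sets called moved from 560 to 210 when unfiltered and 219 when fitted without a trend, and to between 154 (without the original cells) and 943 (without clone 9) with 1 line left out. With the mean of all probe sets of a gene, 234 of 10055 genes were called. In the slope on Aqp2 the number of probe sets called moved from 398 to 51 with no filter, 1 without the trend and 3 over the expressing lines alone, and to between 0 (without clone 11, with 3902 at an unadjusted p under 0.05) and 650 (without clone 10). There, 1 of the 9 genes, Pard3, was called with a filter at the 75th percentile and 1, again Pard3, with a robust fit. Signs turned for Pard6b in clone 2 (0.0195 with median centring, and between -0.140 and 0.0170 with 1 line left out, positive without clone 10). They also turned for the slope of Tjp3 (between -0.0166 and 0.00345 with 1 line left out, positive without clone 9) and, over the expressing lines alone, for the slopes of F11r (-0.0864) and Marveld3 (-0.0182). None of these was called. With median centring the slope calls were 160 up and 187 down, against 230 and 168. Causes were not tested. Minus the median of its chromosome, the clone 2 difference turned sign for Tjp1 (-0.0178), Tjp3 (0.111), Crb3 (0.0915) and Pard6b (0.0572). Minus the median of its neighbours, an alternative chosen after seeing the data, it turned for Tjp3 (0.0290) and Crb3 (0.124), and that of Pard3 was -0.07. These values hold for the representing probe sets. The other Crb3 probe sets (-0.51 and -0.50) lay below the medians of the chromosome (-0.37) and of the neighbours (-0.41). The further Pard3 probe set (-1.03) lay below its neighbours' median (-0.59), and the weaker pair (-0.36 and -0.49) above it. No paired analysis was possible because each line had 1 array and clone 2 was alone in its group.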
